A study of Mus musculus with 6 samples.

Results

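Genes that drive cells through the division cycle were followed by RNA sequencing in mouse epidermis treated with a gel containing AKBA (acetyl-11-keto-β-boswellic acid, from Boswellia resin) or with a blank gel. The set holds 38 of the 47729 genes in the deposited table, chosen by name: 14 genes of DNA replication, 21 genes of mitosis, and the G1 cyclin gene Ccnd1 with the transcription factor genes E2f1 and Foxm1. All 38 were found and all 38 passed the filter on low counts. There were 3 libraries in each group, called AKBA gel 1 to 3 and control gel 1 to 3 after their titles. Both groups were wild-type C57BL/6 mice, and in both the epidermis was freed with Dispase II before RNA was extracted. Control libraries carry the letters IMQ in their descriptions, which the labels do not spell out. Any agent given besides the gel, and the age and sex of the mice, are not given in the labels. No label ties the libraries to separate mice, so the p-values measure library-to-library spread only, and that spread may be technical.

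Dividing cells switch on these genes in an order. In late G1 and S phase, E2F factors released from retinoblastoma proteins turn on the genes that load the replicative helicase, supply nucleotides and copy DNA. In G2 and mitosis, complexes that contain MuvB, B-Myb and FoxM1 turn on the genes for cyclin B, its kinase CDK1, the spindle checkpoint and cytokinesis. In resting skin the dividing cells are mainly those of the basal layer, and the matrix of growing hair follicles is another site of rapid division.

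The 2 phases are known to differ in their promoter elements, so windows of 3 mitotic and 3 replication genes are shown first. They are the 180 bases upstream of the RefSeq start on GRCm38.p6, written 5′ to 3′ in the direction of the gene. Capitals mark letters that match, on either strand, the cell cycle homology region (CHR, TTTGAA), the NF-Y box (CCAAT) or an E2F core. The core was searched as TTCCCGC and also, for its other common forms, as TTGGCGC and then separately as TTCGCGC. Matches that overlap run together. Cdk1 lies at chr10:69352913-69353092 (minus strand), Cdc20 at chr4:118437344-118437523 (minus), Top2a at chr11:99024190-99024369 (minus), Mcm5 at chr8:75109329-75109508 (plus), Mcm6 at chr1:128359706-128359885 (minus) and Rrm1 at chr7:102441515-102441694 (plus).
Cdk1: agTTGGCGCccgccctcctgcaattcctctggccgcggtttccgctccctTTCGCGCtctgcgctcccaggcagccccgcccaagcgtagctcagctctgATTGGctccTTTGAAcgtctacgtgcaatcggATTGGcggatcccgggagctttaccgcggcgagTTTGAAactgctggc
Cdc20: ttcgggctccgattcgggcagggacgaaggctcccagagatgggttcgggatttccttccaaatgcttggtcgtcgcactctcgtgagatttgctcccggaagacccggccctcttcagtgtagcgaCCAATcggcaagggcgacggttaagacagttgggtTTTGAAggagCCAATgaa
Top2a: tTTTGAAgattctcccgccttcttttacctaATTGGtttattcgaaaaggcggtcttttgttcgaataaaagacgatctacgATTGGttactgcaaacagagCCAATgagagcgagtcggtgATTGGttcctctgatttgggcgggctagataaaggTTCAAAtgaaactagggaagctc
Mcm5: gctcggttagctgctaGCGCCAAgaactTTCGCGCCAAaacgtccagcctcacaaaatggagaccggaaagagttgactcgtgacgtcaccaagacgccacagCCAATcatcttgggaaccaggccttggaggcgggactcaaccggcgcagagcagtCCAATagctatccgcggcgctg
Mcm6: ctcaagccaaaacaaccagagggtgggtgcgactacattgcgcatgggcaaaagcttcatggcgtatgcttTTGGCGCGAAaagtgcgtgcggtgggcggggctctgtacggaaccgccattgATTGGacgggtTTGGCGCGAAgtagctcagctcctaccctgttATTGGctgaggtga
Rrm1: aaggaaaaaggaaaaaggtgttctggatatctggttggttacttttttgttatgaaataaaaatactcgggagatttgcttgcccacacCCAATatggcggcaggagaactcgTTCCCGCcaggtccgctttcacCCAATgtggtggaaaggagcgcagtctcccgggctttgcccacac
Cdk1, the kinase of mitotic entry, has 2 CHR matches, at bases -71 to -66 and -15 to -10 from the start, and also 2 E2F cores. Cdc20, the activator of the anaphase-promoting complex, has 1 CHR match (-18 to -13) between 2 NF-Y boxes. Top2a, the topoisomerase that untangles sister chromatids, has a CHR match near the start on the opposite strand (-23 to -18) and another at -179 to -174. The helicase genes Mcm5 and Mcm6 and the reductase gene Rrm1 hold E2F cores and NF-Y boxes in these windows and no CHR match.

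Over windows from 250 bases before to 50 after the start, RefSeq gave a sequence for 30 of the 38 genes, 12 of replication, 17 of mitosis and E2f1. A gene with more than 1 window was counted once, as matched if any of its windows matched. The shares over all RefSeq windows are per window, so the 2 kinds of share are not strictly alike. TTTGAA was found in 12 of the 17 mitotic genes (70.6%) and in 1 of the 12 replication genes (8.33%, Mcm2). It was found in 17.9% of all 32851 windows. An E2F core was found in 3 mitotic genes (17.6%), namely Ccnb1, Cdk1 and Mki67, against 8.07% of all windows. It was found in 7 replication genes (58.3%), namely Cdc6, Cdt1, Mcm3, Mcm5, Mcm6, Mcm7 and Rrm1. CCAAT was found in 15 mitotic (88.2%) and 8 replication genes (66.7%), against 37.4% of all windows. The Sp1 box GGGCGG was found in 82.4% of the mitotic and 75% of the replication genes, against 35.7% of all windows. The CHR was the more frequent in mitotic genes and the E2F core in replication genes, and the other boxes were frequent in both. A match of letters is a description and not a bound site. No match says only that these letters are not in this window.

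**Figure D1:**
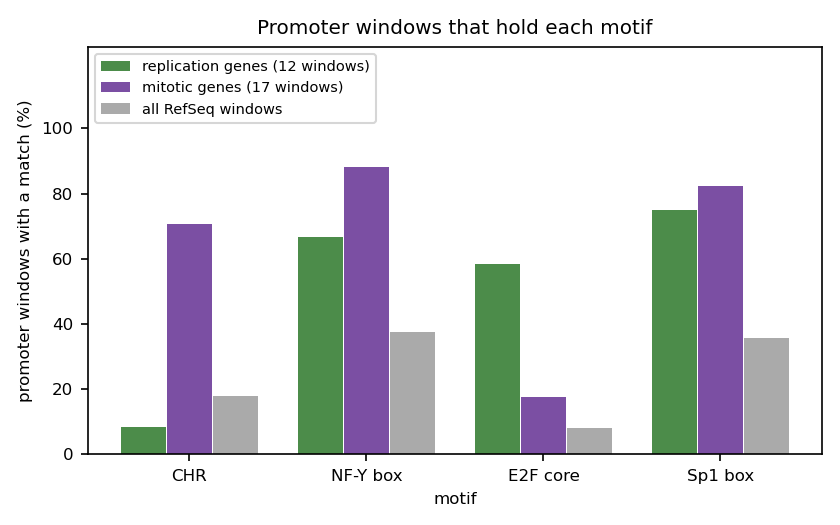
Share (percent, vertical axis) with each motif on either strand, per gene for replication genes (green) and mitotic genes (purple), and per window for all RefSeq windows (grey). The CHR bar is higher in mitotic genes (70.6%) than in replication genes (8.33%), and the E2F bar is higher in replication genes (58.3%) than in mitotic genes (17.6%).

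Libraries held 19066045 to 22760432 counts, and the lowest count of any cell cycle gene was 133 (Ccne1, cyclin E1, in AKBA gel 2). Within each group, counts differed between any 2 libraries beyond sampling noise (chi-square per degree of freedom 30.8 to 91.7). Markers of the labelled tissue were present, since all of 10 basal and 10 suprabasal keratinocyte markers had counts in every library. Other tissue was present too, with counts in every library for 10 fibroblast markers (1.95% to 3.87% of the counts) and for 10 skeletal muscle markers (0.448% to 0.826%). Levels are CPM, the count of a gene scaled for library size with TMM factors. They are given for libraries 1 to 3 of a group in that order. Fold changes are log2 of AKBA gel over control gel from edgeR. Their standard errors (SE) were derived as the size of the log2 fold change over the square root of edgeR's F statistic.

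No cell cycle gene passed the test. With edgeR's quasi-likelihood test and Benjamini-Hochberg adjustment over 17023 genes, 0 of 38 were past 0.05, and the background was 0% of all genes. None had an unadjusted p below 0.05 (smallest 0.127, for Mcm3), against 7.01% of all genes lower and 6.45% higher. DESeq2 called none of the 38 (smallest adjusted p 0.518), against 1.67% of all genes. The 2 groups overlapped for all 38 genes, whereas they did not overlap for 9.1% of all genes lower and 9.28% higher with AKBA gel.

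The fitted changes were small and mostly below 0. They ran from -0.45 for Cdc20 to 0.09 for Ccne2 (cyclin E2), with SEs of 0.14 to 0.30, and their median was -0.12 beside 0.0037 over all genes tested. Of the 38 genes 34 were below 0 (89.5%), against 49.6% of all genes. For each of the 38, the range within each group was wider than the distance between the group means. The count below 0 was 15 without AKBA gel 1 and 13 without control gel 2, 26 without AKBA gel 2, and 35 or 36 with any of the other libraries left out. With 1 library left out in turn, 27 of the 38 changed sign at least once. The 11 that did not were Ccnb1, Ccne1, Cdc20, Cdk1, Cdt1, Mcm2, Mcm3, Mcm4, Mcm5, Mcm7 and Rrm2. Several of these came close to 0 in a single fit: Mcm7 ran from -0.27 (without AKBA gel 3) to -0.011 (without AKBA gel 1), and Cdt1 from -0.28 to -0.025 with the same libraries left out. Mcm5 ran from -0.38 to -0.027, Cdk1 from -0.42 to -0.026 and Ccnb1 from -0.55 to -0.030, lowest without AKBA gel 3 and highest without control gel 2. The ranges of the rest were -0.34 to -0.067 for Mcm2, -0.45 to -0.14 for Mcm3 and for Mcm4, -0.46 to -0.11 for Rrm2 and -0.47 to -0.13 for Ccne1. In the authors' deposited table none of the 38 was called, beside 273 of its 47729 genes (115 up and 158 down). Its log2 fold changes for the 38 ran from -0.40 (Cdc20, FDR 0.585) to 0.13 (Nusap1), with 26 below 0. The share below 0 over all genes of that table was not counted.

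**Figure D2:**
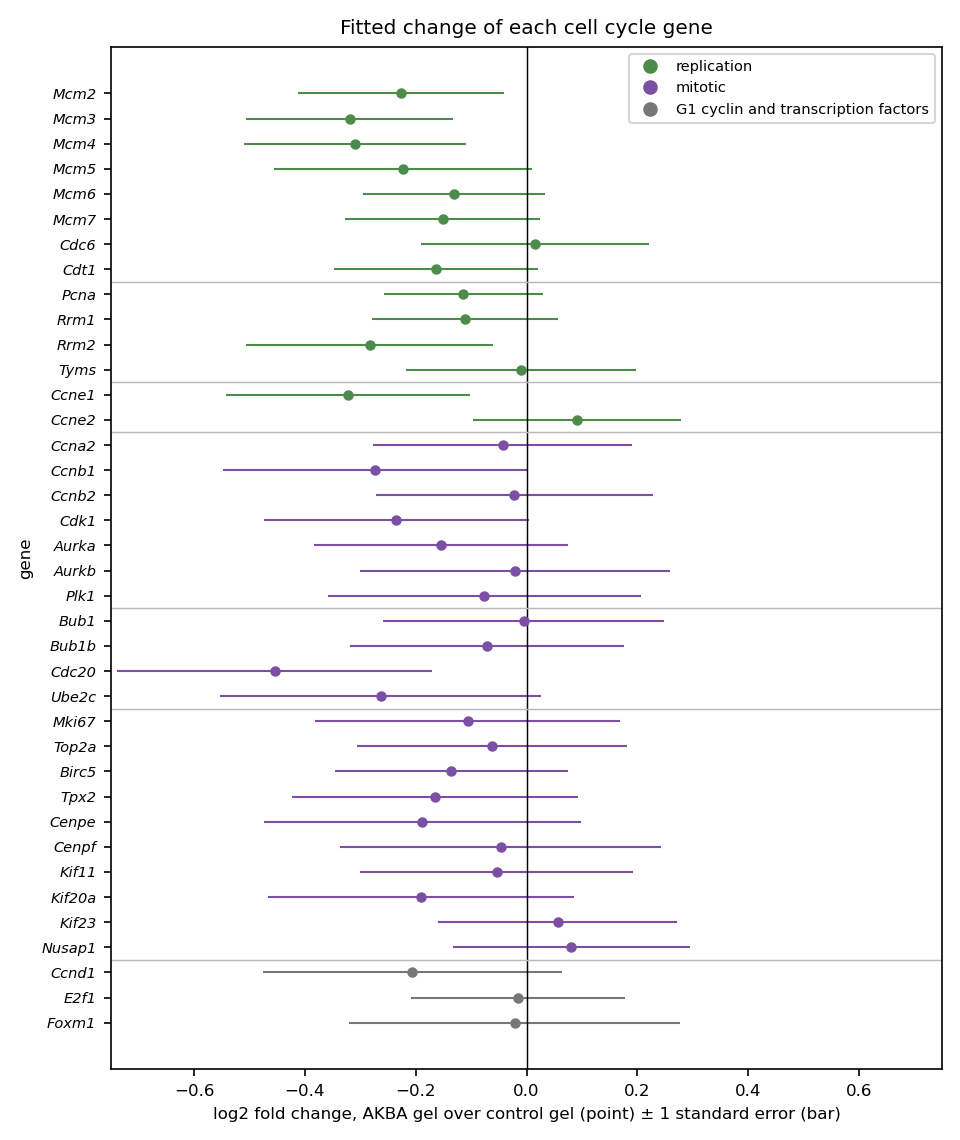
Fitted log2 fold change (horizontal axis, AKBA gel over control gel) of each of the 38 genes (rows), with 1 SE to each side, for replication genes (green), mitotic genes (purple) and the G1 cyclin and transcription factors (grey). Most points lie left of 0, between -0.45 and 0.09.

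On the per-length scale of the deposited FPKM values, the order of mean levels over the 6 libraries began with Pcna (45.9 FPKM), Mki67 (26.2), Rrm1 (23.4), Cdc20 (22.4) and Mcm5 (20.4). It ended with Bub1 (3.40 FPKM), Ccne1 (3.21), Cenpf (3.06) and Cdc6 (2.09). Both phases were present at both ends of this order. Ccnd1 and Top2a, at 16.46 and 16.45 FPKM, were neighbours whose levels differed by less than their spread over libraries.

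The licensing genes encode the MCM2 to MCM7 helicase and its loaders CDC6 and CDT1. All but Cdc6 were below 0, with a median log2 fold change of -0.19 over the 8 genes. Mcm3 was at 36.5, 43.6 and 49.1 CPM with AKBA gel and 42.4, 66.8 and 52.1 CPM with control gel. Its log2 fold change was -0.32 ± 0.19 (edgeR adjusted p = 0.495), the lowest p among the 38 genes. The groups overlapped, since AKBA gel 2 and 3 both lay above control gel 1. Mcm2, another helicase subunit, was at 38.3, 53.4 and 58.1 CPM and 50.7, 69.5 and 55.05 CPM, with a log2 fold change of -0.23 ± 0.19 (adjusted p = 0.622). Here AKBA gel 3 was above both control gel 1 and control gel 3. Cdc6, the smallest change of the group, was at 8.19, 13.9 and 10.9 CPM and 9.90, 11.6 and 11.2 CPM (0.02 ± 0.21, adjusted p = 0.981). Its highest library was AKBA gel 2 and its lowest AKBA gel 1, so the AKBA libraries enclosed all control libraries. The log2 fold changes of the rest were -0.31 ± 0.20 for Mcm4, -0.22 ± 0.23 for Mcm5, -0.13 ± 0.16 for Mcm6, -0.15 ± 0.18 for Mcm7 and -0.16 ± 0.18 for Cdt1.

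Genes of the replication fork and of nucleotide supply had a median of -0.11 over 4. Pcna, the sliding clamp of the polymerases, was at 88.3, 118 and 111 CPM with AKBA gel and 102, 126 and 115 CPM with control gel (-0.11 ± 0.14, edgeR adjusted p = 0.762). AKBA gel 3 exceeded AKBA gel 1 by 1.25-fold, the smallest such ratio among the 38 genes. Rrm2, the S-phase subunit of ribonucleotide reductase, was at 30.3, 40.4 and 45.3 CPM and 33.996, 57.99 and 49.2 CPM (-0.28 ± 0.22, adjusted p = 0.609). Control gel 2 was highest and AKBA gel 1 lowest, and the other 4 libraries were mixed. Tyms, thymidylate synthase, was at 15.7, 21.95 and 24.2 CPM and 19.3, 25.7 and 17.3 CPM (-0.0094 ± 0.21, adjusted p = 0.989). Rrm1, the large reductase subunit, had a log2 fold change of -0.11 ± 0.17.

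The E-type cyclins, which activate CDK2 at the entry to S phase, differed in sign and neither passed. Ccne1 was at 6.82, 7.07 and 8.82 CPM with AKBA gel and 7.24, 11.9 and 9.25 CPM with control gel, and Ccne2 at 10.6, 16.2 and 14.02 CPM and 11.1, 14.3 and 12.9 CPM. The log2 fold changes were -0.32 ± 0.22 and 0.09 ± 0.19 (edgeR adjusted p = 0.549 and 0.866). For Ccne1 control gel 2 was highest, and for Ccne2 AKBA gel 2 was highest. The difference between the pair was not tested. Of the exon bases of Ccne2, 17.4% lie under the opposite-strand gene Ints8.

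**Figure D3:**
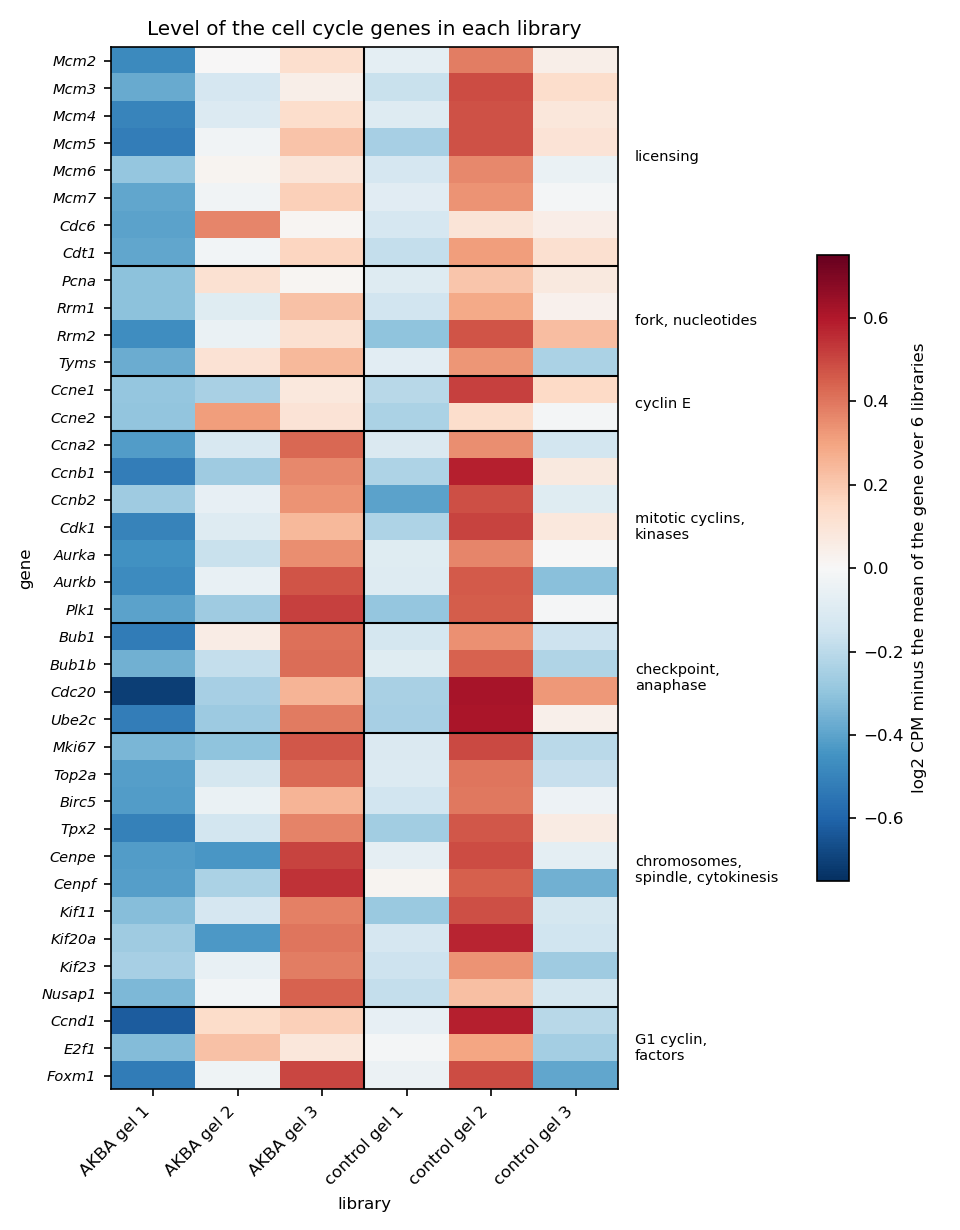
Level of each of the 38 genes (rows) in each of the 6 libraries (columns), as log2 CPM minus the gene's mean over the libraries (red higher, blue lower). The AKBA gel 1 column is blue throughout, control gel 2 is red throughout, and AKBA gel 3 is redder in the mitotic rows than in the replication rows.

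Mitotic cyclins and kinases had a median of -0.08 over 7 genes, all below 0. Ccnb1, cyclin B1, was at 26.2, 31.3 and 48.2 CPM with AKBA gel and 31.9, 56.2 and 39.6 CPM with control gel (-0.27 ± 0.28, edgeR adjusted p = 0.695). Its partner Cdk1 was at 18.98, 25.1 and 31.7 CPM and 22.9, 38.1 and 28.4 CPM (-0.24 ± 0.24, adjusted p = 0.698). In both genes AKBA gel 3 was the second highest library, after control gel 2. Aurkb, the kinase of the chromosomal passenger complex, had the smallest change, at 15.6, 20.7 and 29.9 CPM and 20.1, 29.6 and 17.3 CPM (-0.02 ± 0.28, adjusted p = 0.982). Its 2 highest libraries, AKBA gel 3 and control gel 2, were nearly equal and came from different groups. The log2 fold changes of the others were -0.04 ± 0.23 for Ccna2 (cyclin A2), -0.02 ± 0.25 for Ccnb2 (cyclin B2), -0.15 ± 0.23 for Aurka and -0.08 ± 0.28 for Plk1, kinases of the spindle poles and of mitotic progression.

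Among checkpoint and anaphase genes the median was -0.17 over 4. Cdc20 (chromosome 4, 118432901 to 118437352) had the largest fitted change of the 38 genes, at 24.5, 33.5 and 47.6 CPM with AKBA gel and 33.7, 61.2 and 49.97 CPM with control gel. Its log2 fold change was -0.45 ± 0.28, with an edgeR p of 0.151 and an adjusted p of 0.519. AKBA gel 3 lay within the control range, and AKBA gel 2 lay just under control gel 1. The change was between -0.72 and -0.25 with each library left out. On the opposite strand Elovl1, a fatty acid elongase gene at 261, 295 and 183 CPM and 244, 284 and 555 CPM, shares 53 exon bases with Cdc20 (2.84%). No source used here states whether reads were counted by strand. Bub1, a checkpoint kinase at kinetochores, was at 9.96, 14.9 and 19.1 CPM and 13.1, 18.2 and 12.9 CPM (-0.0047 ± 0.25, adjusted p = 0.995). The related Bub1b had -0.07 ± 0.25, and Ube2c, the ubiquitin-conjugating enzyme of the anaphase-promoting complex, -0.26 ± 0.29. Of the exon bases of Ube2c 22.8% lie under Tnnc2, a muscle troponin gene that had 4 to 19 counts per library.

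Genes of chromosomes, spindle and cytokinesis had a median of -0.08 over 10. Mki67, the Ki-67 proliferation antigen, was at 199.9, 206 and 349.7 CPM with AKBA gel and 236, 357 and 220.3 CPM with control gel (-0.11 ± 0.27, edgeR adjusted p = 0.898). Each group thus had 1 high library (AKBA gel 3 and control gel 2) and 2 that lay between 199.9 and 235.6 CPM. Top2a had the same shape, at 108, 131 and 193 CPM and 134, 189.9 and 127 CPM (-0.06 ± 0.24, adjusted p = 0.935). Kif20a, a kinesin of the central spindle, had the largest change of this list, at 18.2, 16.2 and 28.8 CPM and 19.998, 32.5 and 19.7 CPM (-0.19 ± 0.28, adjusted p = 0.800). AKBA gel 2 was its lowest library, one of only 2 mitotic genes (with Cenpe) for which that was so. Cdc23 on the opposite strand covers 29.3% of the exon bases of Kif20a. Cenpf, a kinetochore protein gene, had the smallest change, at 33.8, 38.2 and 65.7 CPM and 45.8, 61.4 and 35.1 CPM (-0.05 ± 0.29, adjusted p = 0.964). Kif23 (0.06 ± 0.22), a kinesin of cytokinesis, and Nusap1 (0.08 ± 0.21), a spindle protein gene, were the 2 above 0. The rest were -0.19 ± 0.29 for Cenpe, -0.17 ± 0.26 for Tpx2, -0.14 ± 0.21 for Birc5 (survivin) and -0.05 ± 0.25 for Kif11 (the Eg5 kinesin).

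The G1 cyclin and the 2 transcription factors did not pass. Ccnd1, cyclin D1, was at 48.4, 81.96 and 84.2 CPM with AKBA gel and 71.4, 111 and 64.7 CPM with control gel (-0.21 ± 0.27, edgeR adjusted p = 0.774). E2f1 was at 15.8, 23.1 and 21.1 CPM and 19.7, 24.4 and 16.6 CPM (-0.02 ± 0.19, adjusted p = 0.980). Foxm1 was at 21.4, 30.1 and 43.7 CPM and 29.9, 43.2 and 23.5 CPM (-0.02 ± 0.30, adjusted p = 0.982). Foxm1 had the widest spread of the 38 genes within the AKBA group, 2.04-fold between AKBA gel 3 and AKBA gel 1. AKBA gel 3 was the highest library for Foxm1, and control gel 2 was the highest for E2f1 and Ccnd1. LTO1 on the opposite strand covers 23.4% of the exon bases of Ccnd1.

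Variation within the groups was shared by nearly all 38 genes. AKBA gel 1 was the lowest library for 34 of them and among the 3 lowest for all 38. Control gel 2 was the highest for 26 and among the 2 highest for all 38. AKBA gel 3 was the highest for 10 and AKBA gel 2 for the other 2. Summed over the 38 genes, the libraries were at 1335, 1652 and 2178 CPM with AKBA gel and 1608, 2375 and 1697 CPM with control gel. The group means were 1722 ± 425 and 1893 ± 419.7 CPM (SD, n = 3 each), a difference smaller than either SD. In tissue RNA of this kind, fewer dividing cells and less of these transcripts per cell cannot be told apart.

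Replication and mitotic genes differed in which libraries stood high. Control gel 2 was the highest for 12 of the 14 replication genes and AKBA gel 3 for none, whereas among the 21 mitotic genes control gel 2 was the highest for 12 and AKBA gel 3 for 9. AKBA gel 3 was among the 2 highest for 8 of 14 replication genes and 20 of 21 mitotic genes. Relative to each gene's mean, replication genes averaged -0.38, 0.02 and 0.12 (log2) in AKBA gel 1 to 3 and -0.15, 0.35 and 0.05 in control gel 1 to 3. Mitotic genes averaged -0.42, -0.17 and 0.40 with AKBA gel and -0.17, 0.45 and -0.09 with control gel. AKBA gel 3 exceeded AKBA gel 1 by a median of 1.79-fold over the mitotic genes (1.52 for Ccnb2 to 1.94 for Cdc20) and 1.46-fold over the replication genes (1.25 for Pcna to 1.66 for Mcm5). It exceeded AKBA gel 2 by a median of 1.45-fold and 1.12-fold. Control gel 2 exceeded control gel 3 by 1.47-fold and 1.27-fold. AKBA gel 2 exceeded AKBA gel 1 by 1.19-fold over the mitotic genes and by 1.32-fold over the replication genes, the reverse order.

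Mitotic minus replication level, the difference of the mean log2 CPM of the 2 sets inside a library, was -0.19, -0.35 and 0.11 with AKBA gel and -0.17, -0.05 and -0.30 with control gel. The means were -0.14 ± 0.23 and -0.18 ± 0.12 (SD, n = 3 each), a difference of 0.03 that is smaller than either SD. The sign of this difference depended on the libraries, since it was -0.10 without AKBA gel 3, 0.13 without AKBA gel 2, 0.09 without control gel 2 and -0.03 without control gel 3. The fitted medians of the 2 sets were -0.16 for replication and -0.08 for mitosis. Replication was at -0.02 without AKBA gel 1, -0.04 without control gel 2, -0.19 without AKBA gel 2, -0.28 without AKBA gel 3, -0.25 without control gel 1 and -0.20 without control gel 3. Mitosis was at 0.08 without AKBA gel 1, 0.13 without control gel 2, 0.00063 without AKBA gel 2, -0.38 without AKBA gel 3, -0.19 without control gel 1 and -0.20 without control gel 3. The replication median stayed below 0 in these 6 fits and the mitotic median did not.

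Hair genes varied over the same libraries. Of 20 hair follicle markers, which include genes of the inner root sheath, 19 were matched. Their summed level was 59.2, 1018 and 2369 CPM with AKBA gel and 345, 3326 and 149.6 CPM with control gel, a range of 56.2-fold. Tchh, trichohyalin of the inner root sheath, was at 17.02, 238 and 705 CPM and 108, 1110.2 and 47.1 CPM, and Krt71, an inner root sheath keratin, at 1.91, 257 and 635 CPM and 70.6, 896 and 22.6 CPM. In AKBA gel 1, 5 of the 19 had 0 counts (Krt31, Krt33b, Krt34, Krt72 and Krt81), in control gel 3 there were 3 (Krt33a, Krt34 and Krt81) and in AKBA gel 2 there was 1 (Krt34). Control gel 2 and AKBA gel 3 were the 2 highest libraries and AKBA gel 1 the lowest, as for the mitotic genes. The 2 orders differed elsewhere, since control gel 3 was next to lowest for hair genes and next below the 2 highest for mitotic genes. The 10 basal keratinocyte markers had another order, with a summed level of 16421, 11875 and 14759.7 CPM with AKBA gel and 15255, 21877 and 33913 CPM with control gel. Of these 10 markers 7 were below 0, their fitted changes ran from -1.22 to 1.27, and the mean relative level of the list differed by -0.10 (log2) between the groups. With AKBA gel 3 and control gel 2 both left out, the fitted median was -0.15 for replication and -0.16 for mitosis, with 32 of 38 below 0 and none past the threshold. The part of hair follicle RNA in the cell cycle levels was not tested.

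**Figure D4:**
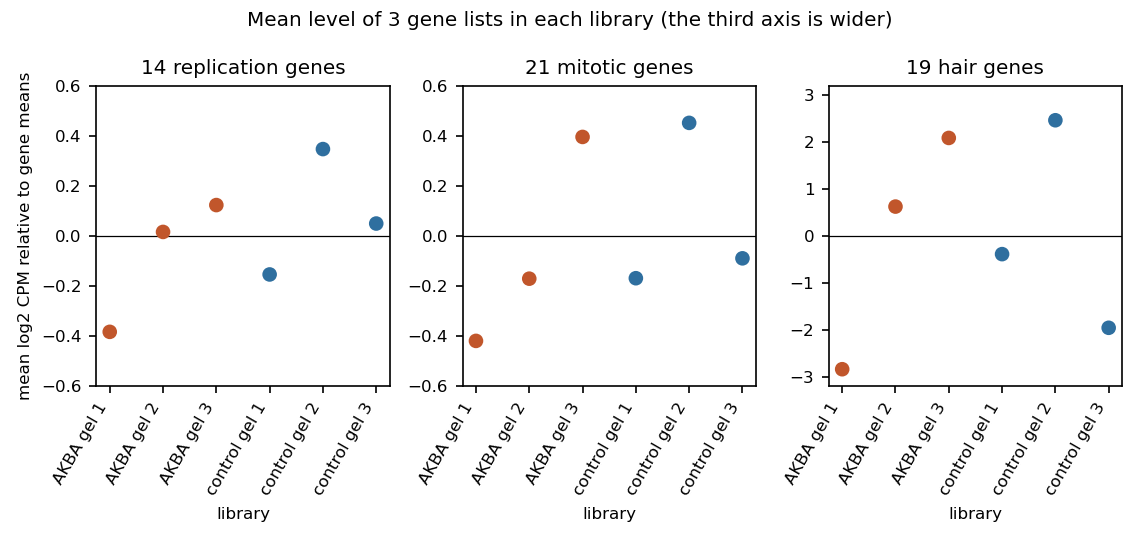
Mean log2 CPM relative to each gene's mean (vertical axis; the third axis is wider) in each library for the 14 replication genes, the 21 mitotic genes and 19 hair genes, with AKBA gel in orange and control gel in blue. Control gel 2 is highest and AKBA gel 1 lowest in each panel, and AKBA gel 3 is nearly level with control gel 2 for mitotic genes (0.40 and 0.45).

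Among the CDK inhibitors, genes for brakes of the cycle, 4 were higher in every AKBA library than in any control library, and none passed the test. Their proteins bind cyclin-dependent kinases or their cyclin complexes and hold cells in G1. Of 7 listed, 6 were tested, 5 were above 0 and the median was 0.38. Cdkn1b, which encodes p27, was at 96.6, 94.1 and 97.9 CPM with AKBA gel and 81.3, 69.3 and 55.8 CPM with control gel (0.48 ± 0.14, edgeR adjusted p = 0.331). Cdkn2b, which encodes p15, was at 13.8, 13.7 and 10.4 CPM and 9.19, 7.73 and 6.90 CPM (0.67 ± 0.18, adjusted p = 0.331). Cdkn2c, which encodes p18, was at 42.9, 54.2 and 46.7 CPM and 37.7, 38.6 and 31.1 CPM (0.42 ± 0.13, adjusted p = 0.334). In these 3 genes and in Cdkn2d (p19; 13.6, 14.99 and 14.1 and 11.4, 12.6 and 11.9 CPM; 0.25 ± 0.12, adjusted p = 0.422), every AKBA library was above every control library. That is 4 of 6, beside 9.28% of all genes. At an unadjusted p below 0.05 there were 3 of 6, beside 6.45% of all genes. The list was chosen with earlier results of these data known, and its genes were measured in the same libraries. These shares are therefore a description and no test of the list. None passed after adjustment with edgeR or DESeq2, whose adjusted p was 0.0745 for Cdkn2b, 0.127 for Cdkn1b and 0.185 for Cdkn2c.

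The other inhibitors overlapped between the groups or were too low to test. Cdkn1a, the p53 target that encodes p21, was at 209, 227 and 174 CPM with AKBA gel and 179, 168 and 266 CPM with control gel (-0.0080 ± 0.20, edgeR adjusted p = 0.990). Its highest library was control gel 3. Cdkn1c, which encodes p57, had a log2 fold change of 0.35 ± 0.19. Cdkn2a was below the filter, with 9, 9 and 12 counts with AKBA gel and 5, 7 and 6 with control gel, also without overlap. Across the libraries left out in turn, Cdkn1b stayed between 0.35 and 0.63, Cdkn2b between 0.58 and 0.80 and Cdkn2c between 0.32 and 0.49. The summed level of 10 suprabasal keratinocyte markers, genes of cells that have left the cycle, was 58935, 68489 and 37289 CPM with AKBA gel and 42159, 28004 and 34283 CPM with control gel. All 10 had counts in every library, and 8 of the 10 were above 0 in the fit. The 10 sebaceous gland markers were all above 0 (median 0.48, 1 without overlap), with a summed level of 6596, 3173 and 4184 CPM with AKBA gel and 4168, 3734 and 3236 CPM with control gel. The 10 macrophage markers were all below 0 (median -0.37, 6 without overlap), at 1658, 1673 and 1794 CPM and 2335, 1857 and 2545 CPM. The 10 immediate early and stress genes, which respond to handling of a tissue, were all below 0 too (median -0.54, 4 without overlap), at 491, 486 and 449.7 CPM and 505, 669.6 and 938 CPM. Over all genes, the share without overlap was 9.28% higher and 9.1% lower with AKBA gel. The 1 of 10 sebaceous markers was thus near the share of all genes. The 30 genes of these 3 lists had counts in every library. The part of any of these cells or of the stress response in the inhibitor levels was not tested.

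**Figure D5:**
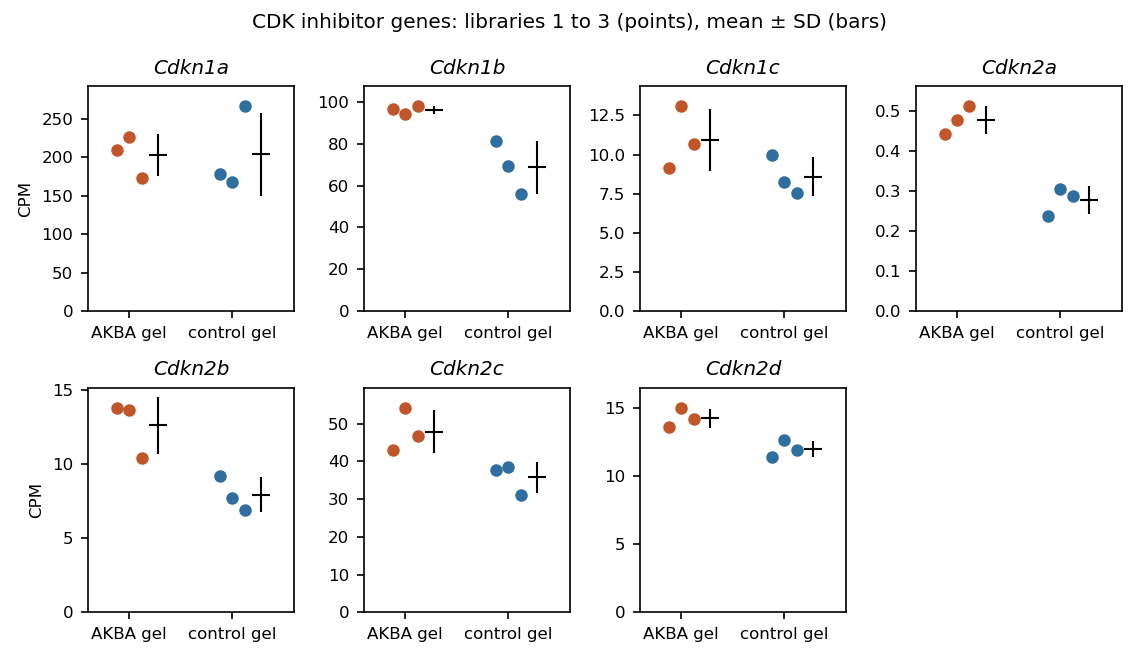
CPM (vertical axis, from 0) of the 7 CDK inhibitor genes in the 3 libraries of each group (points) with mean ± SD (bars). Cdkn1b, Cdkn2b, Cdkn2c and Cdkn2d have every AKBA library above every control library, as has Cdkn2a, which was below the filter, and Cdkn1a and Cdkn1c overlap.

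Upstream of the E2F factors, 2 G1 genes were lower in every AKBA library than in any control library. Cdk6, a kinase that cyclin D activates, was at 55.4, 56.98 and 55.4 CPM with AKBA gel and 60.9, 68.4 and 77.3 CPM with control gel (-0.30 ± 0.11, edgeR adjusted p = 0.343). Ccnd3, cyclin D3, was at 48.03, 46.9 and 51.1 CPM and 54.9, 62.5 and 56.7 CPM (-0.25 ± 0.10, adjusted p = 0.351). These are 2 of the 8 other G1 cyclins and kinases, beside 9.1% of all genes, and the median of the 8 was -0.10. Cdk4, the sister kinase of Cdk6, had a log2 fold change of -0.05 ± 0.14 and Myc -0.17 ± 0.18 (-0.34 without control gel 1 and -0.051 without control gel 3). Ccnd2, cyclin D2, chosen after its values were seen, had 0.24 ± 0.34. For Cdk6 and E2f4 the control libraries had the same order as the summed immediate early and stress genes. They were lowest in control gel 1 and highest in control gel 3. Cdkn1b and Cdkn2b had the reverse order over the control libraries, and Ccnd3, Cdkn2c and Cdkn2d had neither. The immediate early and stress list and the macrophage list were also lower in every AKBA library than in any control library as sums. So were 10 T cell markers, at 118.7, 109.3 and 149.8 CPM with AKBA gel and 150.6, 206.0 and 176.8 CPM with control gel. Of the T cell, endothelial and fibroblast markers tested, 8 of 9, 8 of 8 and 9 of 10 were below 0. Of these, 0, 2 and 2 were without overlap on the lower side. The part of these lists in the levels of Cdk6, Ccnd3 and E2f4 was not tested.

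Of the 7 other E2F genes, whose median was -0.19, E2f4 was the only gene without overlap. With 9.1% of all genes without overlap on the lower side, 1 of 7 is no result about the list. E2f4, a factor that acts mainly as a repressor in resting cells, was at 49.3, 52.3 and 54.4 CPM with AKBA gel and 57.04, 69.4 and 72.4 CPM with control gel (-0.35 ± 0.12, edgeR adjusted p = 0.339). E2f7, a repressor expressed in S phase and chosen after its values were seen, was at 5.20, 9.78 and 10.9 CPM and 9.76, 22.3 and 18.2 CPM (-0.95 ± 0.36, adjusted p = 0.345). Its groups overlapped, and its fitted change was larger in size than that of any of the 38 genes. E2f6 had a log2 fold change of -0.08 ± 0.12, and E2f2, chosen after its values were seen, 0.41 ± 0.27 (0.26 without control gel 1 and 0.74 without control gel 2). Of the 11 retinoblastoma family and MuvB genes, whose median was 0.01, none was without overlap. Rbbp4, a histone-binding subunit of MuvB, had 0.04 ± 0.11, and Tfdp1, the dimer partner of E2F factors, -0.28 ± 0.15. Mybl2, which encodes B-Myb and was chosen after its values were seen, had -0.41 ± 0.34, but only -0.038 without control gel 2, -0.17 without AKBA gel 1 and -0.61 without control gel 1.

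Wider lists of the same phases also had medians below 0. Of 32 other replication genes 23 were below 0 with a median of -0.08, closer to 0 than the -0.16 of the 14 replication genes. Of 44 other mitotic genes 34 were below 0 with a median of -0.06, beside -0.08 for the 21 mitotic genes. The same libraries stood out as for the 38 genes. AKBA gel 1 was the lowest for 23 of the 32 and 33 of the 44, and control gel 2 the highest for 23 and 26. Medians of these wider lists with a library left out were not computed. Rfc3, a clamp loader subunit, was at 15.6, 16.7 and 15.3 CPM with AKBA gel and 12.2, 15.2 and 11.2 CPM with control gel (0.30 ± 0.15, edgeR adjusted p = 0.440). With Gins4, a subunit of the active helicase (0.13 ± 0.11), it was without overlap on the higher side, where the lowest AKBA library (15.25 CPM) and the highest control library (15.24 CPM) of Rfc3 were nearly equal. These 2 of 32 are a smaller share than the 9.28% of all genes. Uhrf1, Smc4 and Cks2, among the most abundant of these lists, had log2 fold changes of -0.15 ± 0.30, -0.03 ± 0.16 and -0.14 ± 0.22. Cks2 was at -0.00038 without AKBA gel 1, -0.025 without control gel 2 and -0.31 without control gel 1. Over all 6 lists beside the 38 genes, 108 genes were tested, and edgeR and DESeq2 both called 0, with 4 lower and 3 higher at an unadjusted p below 0.05. Both counts are smaller shares than the 7.01% lower and 6.45% higher among all genes.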

How the data were processed

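The authors deposited whole-number counts and FPKM values per gene for 6 libraries, beside their own comparison with log2 fold changes, p-values and adjusted p-values, per the file headers. The submitters' processing notes name CASAVA 1.8, RSEM, edgeR and the build GRCm38. The sources used here give neither their roles nor the annotation or a strand setting. From the values, the deposited FPKM are counts per column total and gene length.

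Counts were used as deposited. The test was edgeR 4.0.16 under R 4.3.3 (TMM scaling, default low-count filter, 2-sided quasi-likelihood F test on all 6 libraries, Benjamini-Hochberg adjustment over 17023 genes, threshold 0.05). The script was tested on simulated data. Log2 CPM used a prior count of 2. A count of 3 corresponds to 0.132 to 0.157 CPM, a limit from counting error alone. Positions were taken from GENCODE M21, and promoter windows from RefSeq GRCm38.p6, matched by symbol.

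Full values were given for the largest and smallest change in each role list, for 10 well-known members, and for context genes without overlap or with the highest FPKM in their list. The members and lists were chosen with earlier results of these data known. Alternatives were DESeq2 1.42.0, its size factors within edgeR, no filter, a filter of 5 CPM in 3 libraries, a replicate block, and each library left out. For the level difference between the phases they were a prior count of 0.5, the median over genes and log2(FPKM + 0.1). Leaving out AKBA gel 3 and control gel 2 together was added after seeing the data.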

Additional observations from a re-analysis of the deposited data

How the results depend on the processing

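No cell cycle gene, and none of the other cell cycle genes listed, passed the threshold under any alternative run. Over all genes tested edgeR called 0 with all 6 libraries (1193 lower and 1098 higher at an unadjusted p below 0.05), and DESeq2 called 285 (202 lower and 83 higher). The leave-one-out counts ran from 0 to 14, the 14 being without control gel 1 (13 lower and 1 higher). Leaving out 1 library moved the replication median between -0.28 and -0.02, the mitotic median between -0.38 and 0.13 and the difference in level between the phases between -0.10 and 0.13. The difference in level was 0.15 by the median over genes, larger than the control SD of 0.048 and smaller than the AKBA SD of 0.17. It was 0.03 with a prior count of 0.5 or from log2(FPKM + 0.1). Standard errors of the 38 log2 fold changes were 0.14 to 0.30, and each cell cycle gene had at least 133 counts in every library.

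The labels do not say whether same-numbered libraries were paired. Deviations of same-numbered libraries from their group means correlated at 0.07, 0.02 and -0.33 across genes, and AKBA gel 3 correlated best with control gel 2 (0.43). Deviations from a mean of 3 libraries constrain each other, so these values cannot exclude a pairing. With the replicate block edgeR still called 0 genes, and the medians were -0.16 for replication and -0.10 for mitosis. Small changes turned sign under the block (Cdc6 -0.011, Ccnb2 0.0040, Cdkn1a 0.017), with the stricter filter (Tyms 0.0012, Bub1 0.0066, Cdkn1a 0.0047) or without the filter (Bub1 0.00068). Without AKBA gel 3 and control gel 2 they did so for Tyms (0.049), Ccnb2 (0.083), Nusap1 (-0.011), E2f1 (0.11) and E2f6 (0.034, against -0.17 without AKBA gel 2 alone). The cause was not tested. The lowest and highest log2 fold changes with 1 library left out, for genes that changed sign, were Mcm6 -0.21 to 0.027, Cdc6 -0.19 to 0.19, Pcna -0.20 to 0.0012, Rrm1 -0.25 to 0.0055, Tyms -0.13 to 0.17 and Ccne2 -0.051 to 0.24. Those of the next genes were Ccna2 -0.30 to 0.13, Ccnb2 -0.19 to 0.25, Aurka -0.40 to 0.013, Aurkb -0.29 to 0.23, Plk1 -0.40 to 0.14 and Bub1 -0.23 to 0.21. They were Bub1b -0.32 to 0.15, Ube2c -0.56 to 0.0060, Mki67 -0.40 to 0.13, Top2a -0.32 to 0.13, Birc5 -0.30 to 0.036 and Tpx2 -0.42 to 0.036. The ranges were Cenpe -0.56 to 0.012, Cenpf -0.38 to 0.17, Kif11 -0.27 to 0.20, Kif20a -0.47 to 0.078, Kif23 -0.13 to 0.25 and Nusap1 -0.14 to 0.25. Further ranges were Ccnd1 -0.35 to 0.064, E2f1 -0.14 to 0.13, Foxm1 -0.31 to 0.24, Cdkn1a -0.14 to 0.23, Rbbp4 -0.016 to 0.096 and Ccnd2 -0.047 to 0.54. The remaining ranges were Cdk4 -0.13 to 0.063, Uhrf1 -0.37 to 0.13 and Smc4 -0.16 to 0.087.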
